A study of Homo sapiens with 12 samples.

Results

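The 44 genes described here encode translation initiation factors, translation elongation factors and aminoacyl-tRNA synthetases. They were chosen by symbol alone: EIF or EEF followed by a digit, or the 1-letter code of an amino acid followed by ARS, with EPRS, FARSA and FARSB added, and with EIF3CL and hyphenated read-through symbols left out. They comprise 25 initiation genes, 3 elongation genes and 16 synthetase genes among the 5308 genes listed in at least 1 of the deposited tables. The same rule finds 105 protein-coding genes in GENCODE release 29, of which 55 are initiation genes, 13 elongation genes and 37 synthetase genes. The remaining 61 were listed for no treatment and their levels were not analysed here. They include EEF1A1, which brings charged tRNA to the ribosome, EIF4A1, the main helicase of cap-dependent initiation, and the cytosolic synthetases AARS, GARS, IARS, MARS, NARS, SARS, TARS, WARS and YARS.

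The 12 RNA libraries, 3 from each of 4 groups, came from KKU-213A, a line grown from a human bile duct cancer (cholangiocarcinoma) of mixed papillary and non-papillary type. Lactic acidosis cells were kept in low-glucose DMEM with serum at pH 6.7, with L-lactate at 25 mM and the buffer HEPES at the same concentration, a medium that was introduced in steps. Lactosis cells had 25 mM L-lactate at pH 7.4, and acidosis cells had 25 mM HEPES at pH 6.5. Each treated culture was passaged 5 times or more in its medium. Control cells were kept in low-glucose DMEM with serum and no addition, and the same 3 control libraries served all 3 treatments. The pH of the acid media differed, HEPES was given only with acid, and passages were stated only for treated cells, so none of these can be told apart from the treatments. All cells come from 1 line. The labels do not say whether replicates were separate cultures, so p-values measure only how far libraries differ, and that difference may be technical. In bulk RNA, fewer cells expressing a gene and less of its RNA per cell cannot be told apart.

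Initiation begins when eIF2 delivers the initiator tRNA to the small ribosomal subunit, eIF3 holds that subunit open, and the eIF4 factors bind the mRNA cap and unwind the leader. Elongation is driven by eEF1 and eEF2, and the synthetases charge each tRNA with its amino acid, with separate enzymes in the cytosol and the mitochondrion. Many mRNAs of the translation machinery begin with a C followed by a stretch of pyrimidines, a 5′ terminal oligopyrimidine tract, through which mTORC1 and LARP1 regulate their translation and stability. Cancer cells, those of the bile ducts among them, depend on sustained protein synthesis.

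The deposited values are a length-scaled signal per library, and their read depth is unknown. Fold changes are those of the authors' deposited tables, turned round so that a positive log2 value means higher in treated cells. A gene is listed only where the authors' posterior probability that its expression was equal is under 0.05. The limma p-values against control given below come from the libraries that chose these genes. They were adjusted over listed genes alone, most of them already called different, so they describe spread and are not independent evidence of a change. Control replicate 1 stood apart in scale: it was the lowest of the 3 controls for 39 of the 44 genes, and the library weights that recover the authors' group means placed the other 2 controls at 0.80 and 0.78 of its weight in the lactic acidosis comparison. Over all listed genes, the median difference by limma on log2(value + 1) was 0.455 in lactic acidosis before rescaling by these weights and 0.350 after. It went from 0.369 to 0.336 in lactosis and from 0.323 to 0.310 in acidosis. Of 10 biliary markers, 5 were listed in lactic acidosis, SOX9 and CDH1 higher (log2 fold change 1.45 and 0.30) and KRT19, ANXA4 and MUC1 lower (-0.48, -0.51 and -2.53), with KRT19 at 2596 to 3067 in lactic acidosis cells and 2799 to 4419 in control cells. In lactosis KRT19, ANXA4 and MUC1 were lower, and in acidosis CDH1 was. Of 6 hepatocyte, 5 leukocyte and 4 endothelial markers, SERPINA1 (0.65) and CD68 (0.48) were higher in lactic acidosis and PECAM1 (1.68) in acidosis, and fibroblast markers were listed nowhere. Of 12 muscle markers, 9 were listed in lactic acidosis and 7 in lactosis, with summed values of 18.7, 55.5 and 17.0 in the 3 lactic acidosis libraries and 38.4, 49.9 and 57.8 in the controls, and of 0.49, 56.0 and 0.53 in the lactosis libraries against 0.88, 0.66 and 1.5 in the controls. Each sum runs over the markers listed for that treatment. Replicate 2 had the highest sum within both lactate groups, above the controls in lactosis and within their range in lactic acidosis. In lactic acidosis 6 of these markers were listed higher, each with its highest value in replicate 2, and MB, TNNI2 and TNNT3 lower. TNNI2 made up much of the control sums, at 26.2, 35.4 and 41.0. ACTA1 had 0.43, 19.65 and 0.56 in lactic acidosis, against 0.58, 0.35 and 1.03 in the controls. In lactosis MYL3 was at 0 in the libraries other than replicate 2. The part of this signal in the results was not tested.

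In lactic acidosis 35 of the 44 genes were listed, 25 higher and 10 lower, where 80.6% of the 5308 genes were listed, 58.9% of them higher and 41.1% lower. In lactosis 35 were listed, 22 higher and 13 lower, where 58.2% of genes were listed, 59.3% of them higher and 40.7% lower. In acidosis 17 were listed, 12 higher and 5 lower, where 32.4% of genes were listed, 61.1% of them higher and 38.9% lower. The changes were mostly small: 2 of 35 reached 2-fold in lactic acidosis, where 26.2% of listed genes did, and 0 of 17 in acidosis, where 12.5% did. In lactosis the largest change, that of EIF1AD, fell just short of 2-fold at a log2 fold change of 0.9998, while 20.9% of listed genes reached it. For lactic acidosis the median log2 fold change was 0.37, for lactosis 0.35 and for acidosis 0.29, beside 0.37, 0.35 and 0.32 over all genes listed for the same treatment.

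**Figure D1:**
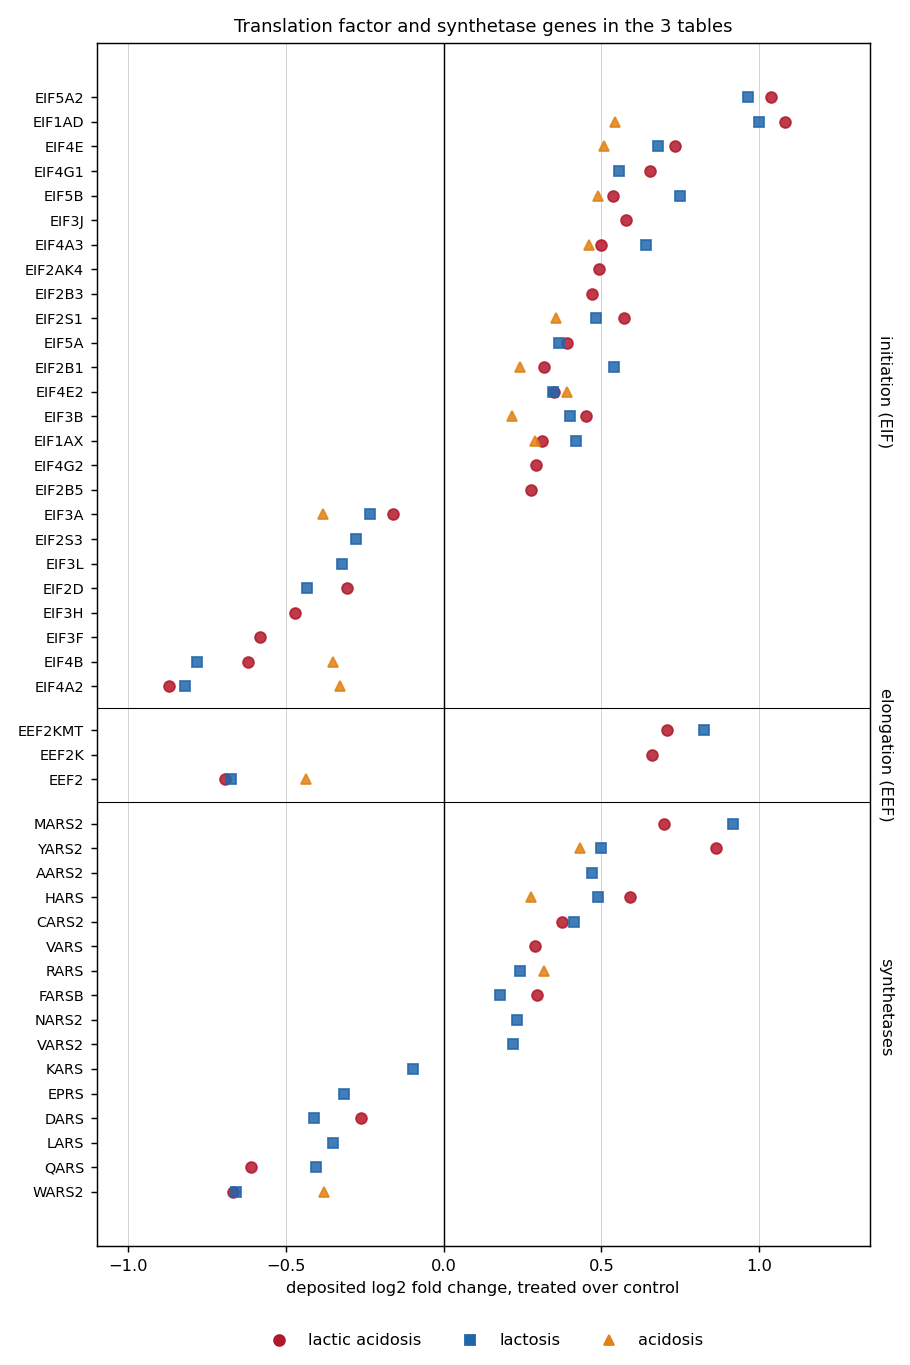
Deposited log2 fold change of each of the 44 genes (horizontal axis, treated over control) in lactic acidosis, lactosis and acidosis, with genes grouped as initiation, elongation and synthetase; a missing point means that the gene was not listed for that treatment. The points of 1 gene lie on the same side of 0 in every treatment that lists it, and they run from -0.87 for EIF4A2 to 1.08 for EIF1AD, both in lactic acidosis.

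No gene was higher in 1 treatment and lower in another: 29 were higher and 15 lower wherever listed. The 3 comparisons share their controls, so this sameness is not independent support. All 3 treatments listed 16 of the genes, where 19.6% of all 5308 genes were listed 3 times. Another 11 were listed for 2 treatments and 17 for 1, of which 9 appeared in lactic acidosis alone, 8 in lactosis alone and 0 in acidosis alone. Initiation genes were listed in all 3 treatments 12 times out of 25, synthetases 3 times out of 16 and elongation genes once, for EEF2.

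Among genes with a promoter entry, most that were lower had a feature at an annotated start site that none of the higher ones showed. A promoter entry was matched for 35 of the 44 genes in RefSeq on GRCh38.p14, 5 of them through a newer symbol. Lower genes without an entry were DARS, EIF3A, EIF3H, EIF3L and LARS, and higher ones AARS2, EEF2KMT, VARS and VARS2. Genes of the symbol rule that were listed for no treatment, EEF1A1 among them, were not scored for this feature as a group. A C at the start base followed by at least 4 bases that are C or T occurred at a start of 8 of the 10 lower genes with an entry and of 0 of the 25 higher genes, beside 1404 of 27305 genes, or 5.14%, in the whole table. With at least 5 such bases the counts were 6 of 10 lower genes and 0 of 25 higher genes, beside 3.83% of all genes. This feature was chosen after the values were seen and carries no test, and the starts are annotated positions that the libraries did not measure. The windows below run from 30 bases before the start to 20 bases in, and are shown because they carry this split. The first 7 belong to genes that were lower with the run, KARS was lower without it, and the last 5 were higher. Capitals mark the start base and, where it is a C, the C or T run that follows it.
EEF2: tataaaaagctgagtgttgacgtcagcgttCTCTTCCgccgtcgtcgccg
EIF4A2: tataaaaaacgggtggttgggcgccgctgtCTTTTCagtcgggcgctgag
EIF4B: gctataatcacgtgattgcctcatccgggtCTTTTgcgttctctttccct
EIF3F: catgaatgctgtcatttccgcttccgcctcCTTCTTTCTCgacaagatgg
EIF2D: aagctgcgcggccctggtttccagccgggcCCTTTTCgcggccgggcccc
EIF2S3: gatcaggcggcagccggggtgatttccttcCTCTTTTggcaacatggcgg
QARS: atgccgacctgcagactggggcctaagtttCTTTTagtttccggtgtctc
KARS: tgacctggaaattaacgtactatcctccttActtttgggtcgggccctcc
EIF4E: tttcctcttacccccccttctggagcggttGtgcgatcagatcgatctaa
EIF2S1: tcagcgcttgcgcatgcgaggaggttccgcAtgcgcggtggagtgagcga
EIF5B: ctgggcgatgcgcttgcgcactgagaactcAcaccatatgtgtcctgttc
EIF1AX: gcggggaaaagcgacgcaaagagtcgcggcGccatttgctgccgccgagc
HARS: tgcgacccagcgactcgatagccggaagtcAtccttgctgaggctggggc

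Each window covers the end of the promoter and the first bases of the first exon, on GRCh38.p14. Those of the lower genes lie at chr19:3985444-3985493 (EEF2, minus strand), chr3:186783547-186783596 (EIF4A2, plus), chr12:53006426-53006475 (EIF4B, plus), chr11:7987307-7987356 (EIF3F, plus), chr1:206612446-206612495 (EIF2D, minus), chrX:24054926-24054975 (EIF2S3, plus), chr3:49104738-49104787 (QARS, minus) and chr16:75647646-75647695 (KARS, minus). Those of the higher genes lie at chr4:98929114-98929163 (EIF4E, minus), chr14:67360298-67360347 (EIF2S1, plus), chr2:99337359-99337408 (EIF5B, plus), chrX:20141819-20141868 (EIF1AX, minus) and chr5:140691351-140691400 (HARS, minus). The eighth lower gene with the run, WARS2, had it at 1 of its 2 annotated starts. Of the lower genes with an entry, EPRS and KARS had no run at any start.

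The share of such starts was also higher among other listed genes that were lower than among those that were higher. Leaving the translation genes out, it was 9.48% of lower and 4.90% of higher genes in lactic acidosis, 10.2% and 4.02% in lactosis, and 9.77% and 4.05% in acidosis. A list of 89 genes with symbols of cytosolic ribosomal proteins, the best known carriers of such tracts, was added after the values were seen. It also takes in relatives with like symbols, RPS27L and RPL7L1 among them. Of the 89, 4 were listed in lactic acidosis and 0 in lactosis or acidosis. RPL29 and RPS4X were lower, and of the relatives RPS27L was lower and RPL7L1 higher.

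**Figure D2:**
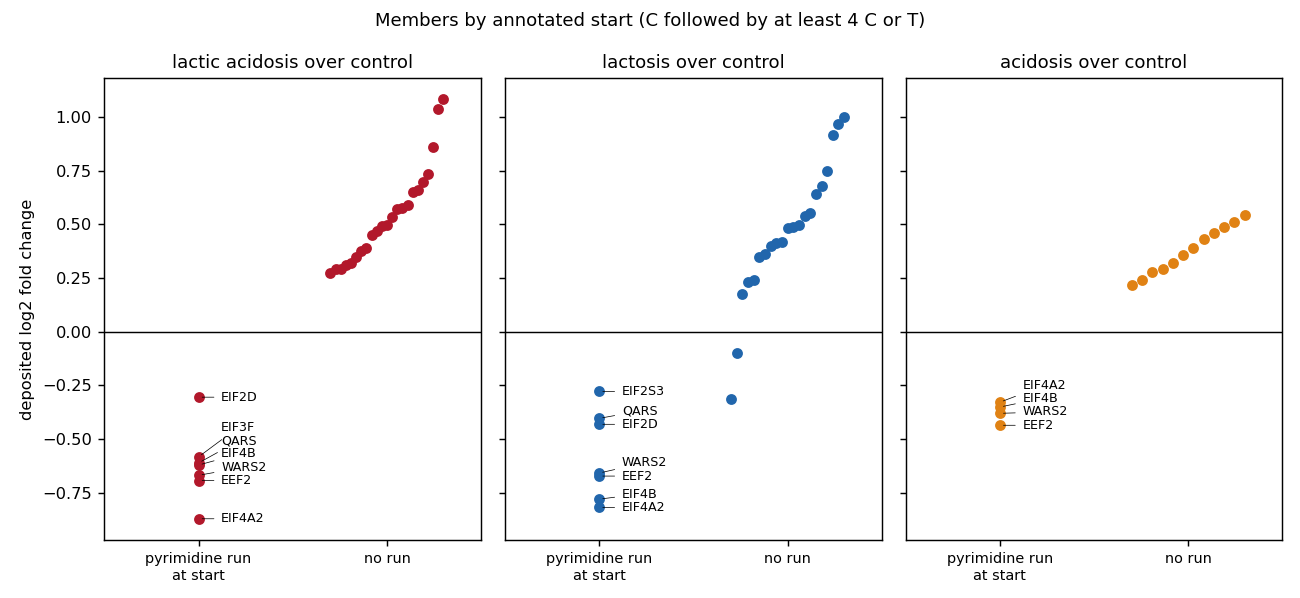
Deposited log2 fold change (vertical axis, treated over control) of the genes with a RefSeq promoter entry in lactic acidosis, lactosis and acidosis, split by whether an annotated start is a C followed by at least 4 C or T; each point is 1 gene. All genes with the run lie below 0, and only EPRS and KARS, in lactosis, lie below 0 without it.

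Among the factors that recruit mRNA, EIF4E and EIF4G1 were listed higher and EIF4A2 and EIF4B lower, while the helicase EIF4A1 was not listed. EIF4E, the protein that binds the mRNA cap, had 74.4, 77.8 and 68.8 in lactic acidosis, 68.5, 62.6 and 70.7 in lactosis and 65.3, 54.5 and 57.3 in acidosis, against 32.7, 39.6 and 52.4 in control cells. EIF4G1, the scaffold that ties the cap-binding protein to the helicase and to eIF3, had 622, 619.8 and 649.9 in lactic acidosis and 588, 489.8 and 616 in lactosis, against 288, 388 and 454 in control cells. For both genes every treated library lay above every control library, and control replicate 1 was the lowest of all. EIF4E rose by limma with a log2 difference of 0.84 ± 0.18 (SE) in lactic acidosis (adjusted p = 0.00363), 0.71 ± 0.18 in lactosis (adjusted p = 0.00936) and 0.52 ± 0.19 in acidosis (adjusted p = 0.0296). In acidosis that call ended when any 1 acidosis library or control replicate 2 was left out. EIF4G1 rose by 0.77 ± 0.17 in lactic acidosis (limma adjusted p = 0.00479) and by 0.60 ± 0.19 in lactosis (limma adjusted p = 0.0197), the lactosis call ending without lactosis replicate 1 or 3.

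EIF4A2, an RNA helicase that is a close relative of EIF4A1, had 498, 474 and 429 in lactic acidosis, 459.6, 441 and 474 in lactosis and 684, 605 and 616 in acidosis, against 698, 798 and 879 in control cells. EIF4B, which stimulates the helicase, had 411, 387 and 385 in lactic acidosis, 345, 300.03 and 359.7 in lactosis and 502, 429.7 and 404 in acidosis, against 505, 598 and 581 in control cells. Both were lowest in the lactate-containing media, and neither overlapped the controls, although acidosis replicate 1 came close to control replicate 1 for EIF4B. EIF4A2 fell by limma in lactic acidosis (-0.76 ± 0.14 SE, adjusted p = 0.00199) and lactosis (-0.78 ± 0.14, adjusted p = 0.00219). EIF4B fell in both as well (-0.51 ± 0.13, limma adjusted p = 0.00792, and -0.74 ± 0.14, limma adjusted p = 0.00294). In acidosis neither passed limma on the deposited values (-0.31 ± 0.16, adjusted p = 0.0928, and -0.34 ± 0.17, adjusted p = 0.0797), while both did after rescaling (adjusted p = 0.00756 and 0.00634, within ranges over all alternatives that reach 0.256 and 0.269). Of 40 windows of 75 bases in the longest EIF4B transcript, 22.5% also occur in pseudogene transcripts, so its counts are less certain.

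EIF4E2, a cap-binding relative of EIF4E that acts as a repressor, was listed in all 3 treatments at nearly equal size. It averaged 88.5 ± 4.4 in lactic acidosis, 91.1 ± 1.6 with lactosis and 92.2 ± 1.1 under acidosis, against 70.2 ± 6.5 in control cells (SD, n = 3 each). It passed limma each time by a small margin (adjusted p = 0.0387, 0.0305 and 0.0441), and lost every one of these calls when any 1 treated library or control replicate 2 was left out. In lactic acidosis it also missed after rescaling, with a difference of 0.22 in place of 0.33 (limma adjusted p = 0.0819, in a range over alternatives up to 0.137). EIF4G2, a relative of EIF4G1 that works without the cap-binding protein and was named after its values were seen, was listed higher in lactic acidosis alone and did not pass limma (0.41 ± 0.18, adjusted p = 0.0569). Exons on the other strand overlap 24.2% of the exonic bases of EIF4E2, and whether counting used strand is not given in the sources used here.

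**Figure D3:**
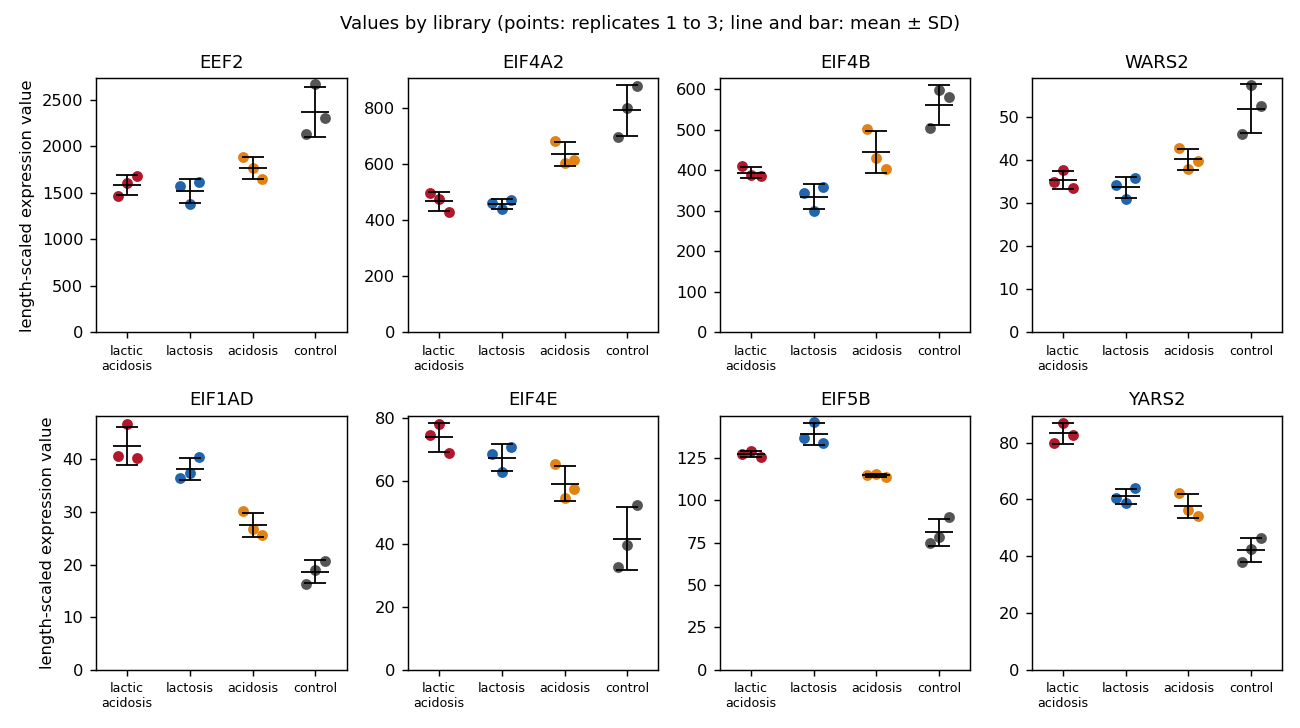
Deposited length-scaled value (vertical axis, from 0) of 8 genes listed in all 3 treatments, with lactic acidosis, lactosis, acidosis and control from left to right; points are the 3 libraries of a group, long lines their mean and bars the SD. In EIF1AD, EIF4E, EIF5B and YARS2 every treated library lies above every control, and in EEF2, EIF4A2, EIF4B and WARS2 every one lies below.

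EIF1AD, which shares a domain with the scanning factor eIF1A, showed the largest relative change of the 44 genes. It had 40.7, 46.8 and 40.2 in lactic acidosis, 36.5, 37.4 and 40.5 in lactosis and 30.1, 26.7 and 25.6 in acidosis, against 16.3, 19.0 and 20.6 in control cells. The groups did not overlap with the control, and every acidosis library lay below every library of the lactate groups. EIF1AD rose in all 3 by limma, by 1.15 ± 0.14 in lactic acidosis (adjusted p = 0.000301), 1.00 ± 0.14 in lactosis (adjusted p = 0.00084) and 0.54 ± 0.16 in acidosis (adjusted p = 0.0160), the last call ending without acidosis replicate 1 or 2 or control replicate 2. EIF1AX, which encodes eIF1A itself, averaged 172 ± 12 in lactic acidosis, 174 ± 4.0 with lactosis and 157 ± 6.0 under acidosis, against 128 ± 22 in control cells (SD, n = 3 each). Its acidosis libraries overlapped the controls, whose replicate 3 reached 152. EIF1AX passed limma in lactic acidosis (adjusted p = 0.0289) and lactosis (adjusted p = 0.0264), in both not without any 1 treated library or control replicate 2, and did not in acidosis (adjusted p = 0.109).

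Of the eIF2 and eIF2B genes, EIF2S1, EIF2B1, EIF2B3 and EIF2B5 were listed higher and EIF2S3 lower. EIF2S1, the alpha subunit of eIF2 that stress kinases phosphorylate, had 134, 135 and 125 in lactic acidosis, 113, 115 and 122 in lactosis and 112, 101 and 104 in acidosis, against 70.3, 83.7 and 92.7 in control cells. It stood above the controls in every treated library, and passed limma in lactic acidosis (0.68 ± 0.14, adjusted p = 0.00346) and lactosis (0.51 ± 0.15, adjusted p = 0.0144, but not without lactosis replicate 1 or 3). In acidosis it did not (0.37 ± 0.17, adjusted p = 0.0631). EIF2S3, the gamma subunit that carries the GTP and the initiator tRNA, was listed lower in lactosis alone, with 141 ± 6.9 in lactosis and 166 ± 10.0 in control cells, and did not pass limma (adjusted p = 0.109). Of its sequence windows 12.5% also occur in EIF2S3B, and EIF2S3 was named after its values were seen.

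The eIF2B complex recharges eIF2 with GTP. EIF2B1, its regulatory alpha subunit, had 135, 138 and 134 in lactic acidosis, 149, 143 and 157 in lactosis and 124, 119 and 117 in acidosis, against 83.0, 103 and 118 in control cells. The acidosis range touched that of the controls, and the lactate groups lay above it. EIF2B1 passed limma in lactic acidosis (0.43 ± 0.15, adjusted p = 0.0268) and lactosis (0.57 ± 0.16, adjusted p = 0.0128) and did not in acidosis (0.25 ± 0.17, adjusted p = 0.168). Without lactosis replicate 3 the lactosis call ended, and without any 1 lactic acidosis library or control replicate 2 the lactic acidosis call did. EIF2B3 and EIF2B5, the gamma and epsilon subunits, were listed in lactic acidosis alone and named after their values were seen. EIF2B3 passed limma (0.60 ± 0.12 SE, adjusted p = 0.00328) and EIF2B5 did not (adjusted p = 0.0666). EIF2AK4, the kinase GCN2 that senses uncharged tRNA and phosphorylates eIF2, was listed in lactic acidosis alone, with 37.5, 41.3 and 38.0 in lactic acidosis and 17.0, 28.9 and 32.6 in control cells. It passed limma there (0.60 ± 0.22, adjusted p = 0.0294), but not without any 1 lactic acidosis library, and without control replicate 1 the difference was 0.33. EIF2AK1, EIF2AK2 and EIF2AK3, the other eIF2 kinases, were listed nowhere.

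eIF3 subunits went both ways. EIF3B, part of the core, had 348, 315 and 329 in lactic acidosis, 315, 275 and 317 in lactosis and 278, 249.98 and 258 in acidosis, against 196, 231 and 246 in control cells. Every treated library exceeded every control, acidosis replicate 2 by little. It passed limma in lactic acidosis (0.56 ± 0.14, adjusted p = 0.0065) and lactosis (0.43 ± 0.15, adjusted p = 0.0255, but not without lactosis replicate 1 or 3 or control replicate 2), and did not in acidosis (0.23 ± 0.16, adjusted p = 0.19). EIF3A, the largest core subunit, was listed lower in all 3 treatments, with 249.9 ± 3.6 in lactic acidosis, 225 ± 22 with lactosis and 201 ± 35 under acidosis, against 259 ± 29 in control cells (SD, n = 3 each). Its groups overlapped each time, and EIF3A passed limma in none on the deposited values (adjusted p = 0.742, 0.218 and 0.0717). After rescaling EIF3A passed in lactosis (limma adjusted p = 0.0238) and acidosis (limma adjusted p = 0.0057), as it did in both without control replicate 1, while over all alternatives its p reached 0.489 in lactosis and 0.263 in acidosis.

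A further 4 eIF3 genes, named after their values were seen, were listed for 1 treatment each. EIF3J, a loosely held subunit, was higher in lactic acidosis, with 233 ± 9.2 in lactic acidosis and 143 ± 6.1 in control cells, and passed limma (0.70 ± 0.12 SE, adjusted p = 0.00151). EIF3F and EIF3H were lower there, with 558 ± 19 in lactic acidosis and 765 ± 21 in control cells for EIF3F, and 373 ± 24 in lactic acidosis and 474 ± 16 in control cells for EIF3H. Both passed limma (adjusted p = 0.00894 and 0.0285), and neither was listed elsewhere. EIF3L was lower in lactosis and did not pass limma (adjusted p = 0.0777), and 42.5% of its sequence windows occur in other transcripts.

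EIF5B, the GTPase that joins the ribosomal subunits, and the EIF5A genes, which encode a factor that relieves stalled elongation and termination, were higher. EIF5B had 127, 129 and 125 in lactic acidosis, 137, 146 and 134 in lactosis and 115, 115 and 113 in acidosis, against 74.7, 78.4 and 89.9 in control cells. The treated groups were tight and each lay wholly above the controls, with lactosis the highest. EIF5B rose by limma in all 3, by 0.65 ± 0.13 in lactic acidosis (adjusted p = 0.00281), 0.77 ± 0.14 in lactosis (adjusted p = 0.00204) and 0.50 ± 0.16 in acidosis (adjusted p = 0.0192), the acidosis call ending without any 1 acidosis library or control replicate 2.

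EIF5A2, the less abundant of the pair in these cells, had 10.0, 11.96 and 10.6 in lactic acidosis and 9.41, 9.24 and 10.7 in lactosis, against 4.10, 5.42 and 5.22 in control cells. It came to about the 2-fold mark in both (log2 fold change 1.04 and 0.97), and rose by limma (adjusted p = 0.000603 and 0.00176). EIF5A, named after its values were seen, averaged 1963 ± 69 in lactic acidosis and 1819.6 ± 56 in lactosis, against 1385 ± 122 in control cells (SD, n = 3 each), and also rose by limma (adjusted p = 0.00774 and 0.0254). On this length-scaled signal the level of EIF5A was far above that of EIF5A2 in every group, and 17.5% of EIF5A windows occur in copies of the gene. EIF4A3, the helicase of the exon junction complex rather than of cap binding, averaged 257 ± 12 in lactic acidosis, 269 ± 16 with lactosis and 233 ± 2.1 under acidosis, against 169.7 ± 28 in control cells, with no overlap (SD, n = 3 each). EIF4A3 rose by limma in all 3 (adjusted p = 0.00753, 0.00693 and 0.0311), and the acidosis call ended without any 1 acidosis library or control replicate 2. EIF2D, which brings tRNA to the small subunit without eIF2 and was named after its values were seen, averaged 42.1 ± 2.0 in lactic acidosis and 36.7 ± 3.1 in lactosis, against 48.2 ± 5.0 in control cells, and passed limma in lactosis (adjusted p = 0.037) but not in lactic acidosis (adjusted p = 0.209).

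Elongation was represented by EEF2, which moves the ribosome along the mRNA, and by 2 enzymes that act on its product. EEF2 had 1466, 1600.1 and 1684 in lactic acidosis, 1578, 1377 and 1612 in lactosis and 1884, 1767 and 1650.3 in acidosis, against 2134, 2665 and 2305 in control cells. All treated libraries lay below all 3 controls. The lactic acidosis range overlapped those of lactosis and acidosis, while every lactosis library lay below every acidosis library. EEF2 fell by limma in all 3 treatments, by -0.58 ± 0.14 (SE) in lactic acidosis (adjusted p = 0.00614), -0.63 ± 0.15 in lactosis (adjusted p = 0.00626) and -0.42 ± 0.16 in acidosis (adjusted p = 0.0393). The acidosis call ended without any 1 acidosis library or control replicate 2. EEF2 had the highest level of the 44 genes on this signal in control cells, ahead of EIF5A.

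EEF2K, the kinase that phosphorylates and inhibits eEF2, was listed in lactic acidosis alone. It had 12.3, 13.0 and 13.3 in lactic acidosis and 4.17, 8.39 and 10.8 in control cells, so that the groups did not overlap but the controls were widely spread. EEF2K passed limma (0.74 ± 0.26, adjusted p = 0.0273), but not without any 1 lactic acidosis library, and without control replicate 1 the difference was 0.40. EEF2KMT, which methylates eEF2, had 20.2, 19.1 and 23.8 in lactic acidosis and 22.1, 23.1 and 19.5 in lactosis, against 11.7, 12.9 and 11.1 in control cells. EEF2KMT rose in both by limma (0.77 ± 0.14, adjusted p = 0.0017, and 0.81 ± 0.14, adjusted p = 0.00178). Exons of ALG1 on the other strand overlap 29.3% of its exonic bases, and 15% of its windows occur in pseudogenes, so the EEF2KMT values are uncertain. The genes of eEF1, the partner factor that loads tRNA, were not listed for any treatment.

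Of the cytosolic synthetases, 9 were listed. DARS, EPRS, KARS, LARS, QARS and RARS belong to the multisynthetase complex, whose enzymes number 8 genes here, and the first 5 were lower and RARS higher. FARSB, HARS and VARS act outside it, and all 3 were higher. These counts by complex are a grouping made after the values were seen. QARS, which charges glutamine tRNA, had 96.5, 92.9 and 99.5 in lactic acidosis and 109, 98.6 and 109 in lactosis, against 124, 143 and 141 in control cells. No treated library reached a control, and the ranges of the 2 treated groups overlapped. QARS fell by limma in lactic acidosis (-0.49 ± 0.13, adjusted p = 0.00801) and lactosis (-0.37 ± 0.13, adjusted p = 0.0338), the lactosis call ending without any 1 lactosis library or without control replicate 2 or 3.

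EPRS, the fused enzyme for glutamate and proline, had 128, 119 and 153 in lactosis and 146, 176 and 162 in control cells, which overlap, and did not pass limma (-0.28 ± 0.15, adjusted p = 0.107). EPRS passed after rescaling (limma adjusted p = 0.0159) and without control replicate 1 (limma adjusted p = 0.0294), in a range over alternatives up to 0.302. DARS, KARS and LARS, for aspartate, lysine and leucine and named after their values were seen, were lower in lactosis with log2 fold changes of -0.41, -0.10 and -0.35. Only DARS passed limma (adjusted p = 0.038), and in lactic acidosis, where it was also listed lower, it did not (adjusted p = 0.319). RARS, for arginine, averaged 240.4 ± 6.0 in lactosis and 249.96 ± 2.2 in acidosis, against 200.3 ± 31 in control cells (SD, n = 3 each), and did not pass limma in either (adjusted p = 0.11 and 0.0865).

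HARS, which charges histidine tRNA, had 79.4, 79.8 and 79.5 in lactic acidosis, 70.6, 64.8 and 76.2 in lactosis and 65.5, 56.8 and 57.5 in acidosis, against 40.9, 49.4 and 57.8 in control cells. The lactate groups stood above the controls, while 2 acidosis libraries lay below control replicate 3. HARS rose by limma in lactic acidosis (0.69 ± 0.15, adjusted p = 0.00405) and lactosis (0.52 ± 0.16, adjusted p = 0.019, but not without lactosis replicate 1 or 3 or control replicate 2). In acidosis it did not pass (0.29 ± 0.17, adjusted p = 0.133). FARSB and VARS, for phenylalanine and valine and named after their values were seen, passed limma in lactic acidosis (adjusted p = 0.043 and 0.0195). FARSB did not in lactosis (adjusted p = 0.249), where VARS was not listed.

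Of 7 mitochondrial synthetases listed, AARS2, CARS2, MARS2, NARS2, VARS2 and YARS2 were higher and WARS2 lower. YARS2, for tyrosine, had 79.9, 87.1 and 82.9 in lactic acidosis, 60.6, 58.7 and 64.1 in lactosis and 62.3, 56.3 and 54.3 in acidosis, against 38.0, 42.6 and 46.3 in control cells. Lactic acidosis stood above both other treatments without overlap, and all treated libraries stood above the controls. YARS2 rose by limma in all 3, by 0.96 ± 0.13 (adjusted p = 0.000503), 0.52 ± 0.14 (adjusted p = 0.0103) and 0.44 ± 0.16 (adjusted p = 0.0325) for lactic acidosis, lactosis and acidosis, the acidosis call ending without any 1 acidosis library or control replicate 2.

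WARS2, for tryptophan, went the other way, with 34.8, 37.6 and 33.5 in lactic acidosis, 34.1, 30.9 and 35.8 in lactosis and 42.7, 38.0 and 39.7 in acidosis, against 46.0, 57.3 and 52.4 in control cells. No treated library overlapped the controls. WARS2 fell by limma in lactic acidosis (-0.54 ± 0.14, adjusted p = 0.00744) and lactosis (-0.61 ± 0.14, adjusted p = 0.00679), and in acidosis it did not pass on the deposited values (-0.36 ± 0.16, adjusted p = 0.0631).

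MARS2, for methionine, had 17.9, 18.7 and 17.6 in lactic acidosis and 18.1, 19.0 and 22.6 in lactosis, against 7.10, 11.4 and 13.0 in control cells, and rose by limma in both (0.77 ± 0.20, adjusted p = 0.00812, and 0.89 ± 0.21, adjusted p = 0.00668). AARS2, for alanine, was listed in lactosis, with 10.97, 9.51 and 11.9 in lactosis and 5.03, 8.27 and 10.0 in control cells, which overlap, and it did not pass limma (0.46 ± 0.22, adjusted p = 0.0703). CARS2, NARS2 and VARS2, for cysteine, asparagine and valine and named after their values were seen, had log2 fold changes of 0.41, 0.23 and 0.22 in lactosis. Only CARS2 passed limma (adjusted p = 0.0432), as it did in lactic acidosis (adjusted p = 0.0272). Of the VARS2 sequence windows 30.0% also occur in transcripts of GTF2H4, so its values are less certain.

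By limma over all listed genes, 23 of the 35 genes were higher and 7 lower in lactic acidosis, where 55.3% of all 4279 listed genes were higher and 30.8% lower. In lactosis 17 of 35 were higher and 7 lower, where 46.5% and 31.2% of 3087 were. In acidosis 6 of 17 were higher and 1 lower, where 35.9% and 24.2% of 1721 were. By role, initiation genes were 15 higher and 4 lower of 23 in lactic acidosis, 12 and 3 of 18 in lactosis, and 5 and 0 of 12 in acidosis. Synthetases were 6 and 2 of 9, 4 and 3 of 15, and 1 and 0 of 4 for the same treatments. The genes were listed on these same libraries, so the p-values describe spread and are not independent of the listing.

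After rescaling, the counts became 24 higher and 9 lower in lactic acidosis, 21 and 12 in lactosis, and 12 and 5 in acidosis, beside 57.2% and 40.3%, 57.6% and 39.8%, and 59.4% and 38.2% of all listed genes. Single libraries moved these counts. Among the genes named after their values were seen, EIF2B3, EIF3F, EIF3J and, in lactic acidosis, EIF5A kept their call under all 12 alternatives. In lactic acidosis CARS2, VARS, FARSB and EIF3H did not pass without any 1 lactic acidosis library, nor FARSB and EIF3H without control replicate 2. In lactosis CARS2, DARS, EIF2D and EIF5A did not pass without any 1 lactosis library, nor the last 3 without control replicate 2, nor DARS and EIF2D without control replicate 3. Without control replicate 1, DARS and EIF2D passed in lactic acidosis, and EIF2S3, EIF3L and LARS in lactosis, and without control replicate 3, EIF2B5 and EIF4G2 passed in lactic acidosis. Without control replicate 1 the differences of CARS2 were 0.30 in lactic acidosis and 0.26 in lactosis, in place of 0.48 and 0.44, and that of FARSB in lactic acidosis was 0.24 in place of 0.41. Among the other genes, EIF3A, EIF4A2, EIF4B and WARS2 passed in acidosis and EIF3A and EPRS in lactosis without control replicate 1. Without control replicate 3, EIF1AX, EIF2S1, HARS and RARS passed in acidosis and AARS2 and RARS in lactosis. All of these passed after rescaling too. Without any 1 lactic acidosis library 15 were higher in lactic acidosis. In lactosis 9 were higher without lactosis replicate 1 and 8 without lactosis replicate 3, and 4 were lower without any 1 lactosis library or without control replicate 2 or 3, while 12 were lower without control replicate 1. In acidosis 0 were higher without acidosis replicate 1 or 2 or control replicate 2, 1 without acidosis replicate 3 and 10 without control replicate 3, and 5 were lower without control replicate 1 and 0 without any 1 acidosis library or control replicate 2. The groups did not overlap for 32 of 35 genes in lactic acidosis, 27 of 35 in lactosis and 13 of 17 in acidosis, where 90.2%, 84.0% and 75.5% of all listed genes did not.

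The treated groups were then compared with each other for genes listed in both of their tables, a test in which the controls take no part except through the listing. Lactic acidosis and lactosis differed for 1 of 26 genes, YARS2, which was 0.44 ± 0.08 (SE) higher in lactic acidosis on the log2 scale (limma adjusted p = 0.00363), where 15.7% of 2344 genes were higher and 4.78% lower. Without lactosis replicate 3, 2 genes were higher. Lactic acidosis was higher than acidosis for 7 of 16 genes and lower for 1, where 38.7% of 1304 genes were higher and 10.0% lower. The 7 were EIF1AD, YARS2, HARS, EIF3B, EIF3A, EIF4E and EIF2S1, with differences between 0.31 and 0.61, and EIF4A2 was the 1 lower, at -0.44.

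Lactosis was higher than acidosis for 3 of 17 genes and lower for 2, where 16.4% of 1173 genes were higher and 7.50% lower. EIF1AD, EIF2B1 and EIF5B were higher, by 0.46, 0.32 and 0.27, and EIF4A2 and EIF4B lower, at -0.47 and -0.41. Without lactosis replicate 1 or acidosis replicate 2 or 3 only 1 gene was higher, without acidosis replicate 1 there were 5, and without lactosis replicate 1 or 2 or acidosis replicate 2 only 1 was lower. After rescaling, 1 gene was higher and 1 lower for lactic acidosis over lactosis, where 14.8% and 9.09% of all tested genes were. For lactic acidosis over acidosis the counts were 7 and 4, beside 31.1% and 15.6%, and for lactosis over acidosis 3 and 4, beside 19.9% and 12.4%. EEF2, EIF4B and WARS2 were then also lower in lactic acidosis than in acidosis. With rescaling, the median difference over all tested genes went from 0.107 to 0.032 for lactic acidosis over lactosis. It went from 0.155 to 0.0655 for lactic acidosis over acidosis, and from 0.052 to 0.032 for lactosis over acidosis.

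**Figure D4:**
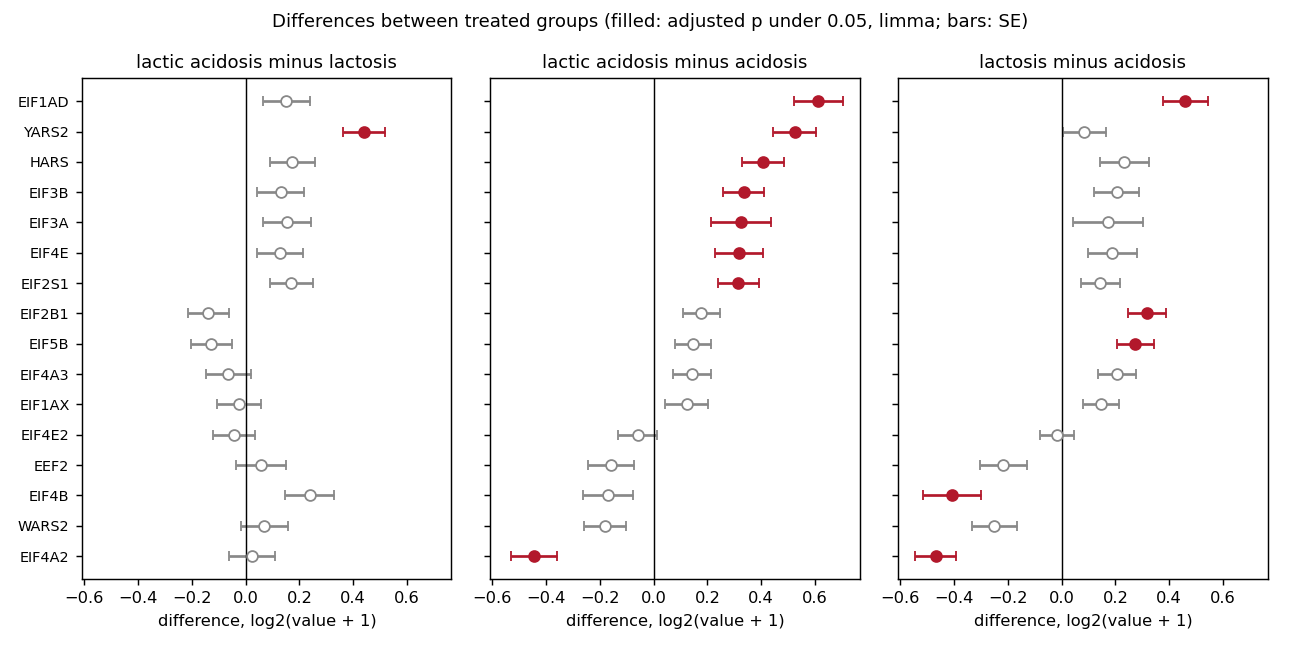
Log2 difference by limma between treated groups (horizontal axis, first group minus second) for the 16 genes listed in all 3 tables, with bars of 1 standard error; filled points have an adjusted p under 0.05. EIF1AD lies at 0.61 and EIF4A2 at -0.44 for lactic acidosis minus acidosis, and YARS2 at 0.44 is the 1 filled point for lactic acidosis minus lactosis.

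Neighbouring factors that the symbol rule leaves out gave the following counts of the authors' calls, which stand beside 58.9% higher and 41.1% lower of all listed genes in lactic acidosis, 59.3% and 40.7% in lactosis, and 61.1% and 38.9% in acidosis. Of 6 termination and recycling factors, 4 were higher and 1 lower in lactic acidosis, and 3 were higher and 0 lower in both lactosis and acidosis. ABCE1, which splits the ribosome after termination, averaged 158 ± 14 in lactic acidosis, 139 ± 13 with lactosis and 128 ± 7.6 under acidosis, against 98.5 ± 26 in control cells (SD, n = 3 each). Its acidosis library 3 and control library 3 were both at 121. ETF1 and GSPT1, the pair that releases the finished protein, were the other genes of this list higher in all 3 treatments, and GSPT2, a relative of GSPT1, was lower in lactic acidosis.

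Of 15 other initiation helpers, 3 were higher and 5 lower in both lactic acidosis and lactosis, and 1 higher and 2 lower in acidosis. Those listed for every treatment were ABCF1, PABPC3 and PABPC4. For lactic acidosis, lactosis and acidosis, ABCF1 had log2 fold changes of 0.82, 0.62 and 0.40. PABPC3 had -2.55, -2.58 and -2.08, and PABPC4 had -0.20, -0.15 and -0.17. PABPC1, which binds the poly(A) tail, had 1515, 1584 and 1486 in lactic acidosis and 2195, 2428 and 2214 in control cells, without overlap. LARP1, which binds pyrimidine-tract mRNAs, had 204, 219 and 213 in lactic acidosis and 196, 164 and 211 in lactosis, against 109, 165 and 174 in control cells. Lactosis replicate 2 lay within the control range, and the other treated libraries above it. PDCD4, an inhibitor of the eIF4A helicase, averaged 47.2 ± 3.9 in lactic acidosis and 44.3 ± 6.1 in lactosis, against 68.1 ± 13 in control cells (SD, n = 3 each). Of 9 mitochondrial translation factors, 2 were higher and 2 lower in each lactate group and 0 were listed in acidosis. Of 13 synthetase cofactors and related genes, 2 were lower in lactic acidosis, 2 higher in lactosis, and 1 was higher and 1 lower in acidosis.

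Lists of upstream control genes were counted in the same way. Of 26 genes made up of ATF4, the factor induced when eIF2 is phosphorylated, and its targets, 8 were lower and 0 higher in lactic acidosis, 8 lower and 1 higher in lactosis, and 7 lower and 0 higher in acidosis, beside the same shares of all listed genes. The median log2 fold change of the listed ones alone was -2.13, -1.61 and -2.23 for these treatments. ATF4 itself, and ASNS, TRIB3, PSAT1 and PHGDH among its targets, were listed for no treatment. DDIT3, a stress-induced transcription factor, had 15.1, 17.0 and 17.0 in lactic acidosis, 16.6, 13.0 and 12.5 in lactosis and 35.0, 29.2 and 30.4 in acidosis, against 678, 481 and 203 in control cells. The control libraries differed widely among themselves, with replicate 1 the highest, and all lay far above the treated ones. Of 7 genes that control eIF2 phosphorylation, a list without the eIF2 kinases, 0 were listed in the lactate groups and IMPACT alone, lower, in acidosis. Of 23 genes of mTORC1 signalling, AKT1S1 was lower in lactic acidosis and 0 were listed otherwise.

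The promoters, from 250 bases before to 50 bases after each annotated start, were searched on both strands for TGATGNAA, the core of the element bound by ATF4 with C/EBP partners, and for CACGTG, the E-box bound by MYC and USF factors. TGATGNAA occurred in 1 of 46 promoters of the translation genes, or 2.17%, that of YARS2, beside 3.62% of 35116 promoters in the whole table. CACGTG occurred in 10 of 46, or 21.7%, beside 7.26% of all. For neither motif was the share among other listed genes counted, so the numbers do not show a trait particular to translation genes. The 10 genes with an E-box were EEF2K, EIF2B3, EIF3F, EIF4A3, EIF4B, EIF4E, EIF4G1, EIF5A2, CARS2 and MARS2, and EIF3F and EIF4B were the lower ones among them. The EIF4B match, cacgtg, stands in its window printed above. A match is a description of letters and not of a bound site.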

How the data were processed

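Poly(A) RNA of 12 KKU-213A libraries was sequenced as single-end reads of 75 nt, per the labels' protocols. STAR and hg38 are named in the submitters' processing notes, and the counting tool is not given in the sources used here. For each treatment the authors deposited a table against shared controls, with EBSeq's column names in its header. Its deposited per-library signal is scaled by gene length, with no statement of TPM or FPKM. The group means deposited beside it are a signal too, of counts over size factors. The deposited fold change, a ratio with control on top, was inverted here. Listed genes have a deposited probability of equal expression under 0.05. Library totals are not given, so no counting interval or floor was set. Between tables, control values differed by 0 at most.

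The members and lists were chosen with earlier results of these data known. A two-sided limma test (3.58.1, R 4.3.3) was run on log2(value + 1) without a filter, for the 6 libraries of each comparison, with Benjamini-Hochberg adjustment over all listed genes or, between treated groups, over genes listed in both tables. A limma difference is on the log2(value + 1) scale and understates changes of low genes. The script was tested on simulated data. Library weights fitted to the authors' group means of listed genes gave the rescaled alternative, which is therefore not independent of the listing. Genes were named by rule: the 5 largest changes per table and role whose mean of the deposited group means was 10 or more, all genes in 3 tables and a set of regulators, 26 in all. The other 18 were named after their values were seen. Gene positions and overlaps are from GENCODE release 29, and promoters from RefSeq on GRCh38.p14. Alternatives were pseudocounts of 0.1 and 5, a filter on mean values under 1, rescaling, the replicate number as a block, an adjusted p under 0.01, a 1.5-fold minimum, a probability under 0.01 and each library left out. Other software was matplotlib 3.10.9, scipy 1.17.1, pandas 2.3.3 and numpy 2.4.6 in Python 3.11.15.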

Additional observations from a re-analysis of the deposited data

Results flagged for a closer look

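Differences between treated groups by limma on log2(value + 1) are collected here, since they set 1 treatment against another without the controls in the fit. Each is given for 3 libraries against 3, with p-values adjusted over all genes listed in both tables, and no explanation was tested. YARS2 was 0.44 higher in lactic acidosis than in lactosis, with every lactic acidosis library above every lactosis library, and kept this call under all 12 alternatives. Rescaled, its difference was 0.36.

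Between lactic acidosis and acidosis, EIF1AD was 0.61 higher in lactic acidosis, YARS2 0.52, HARS 0.41, EIF3B 0.33 and EIF2S1 0.31, and EIF4A2 stood at -0.44. These 6 kept their call under all 12 alternatives. After rescaling their differences were 0.51, 0.43, 0.31, 0.23, 0.21 and -0.54 in the same order. The median over all genes listed in both went from 0.155 to 0.0655. EIF4E was 0.32 higher in lactic acidosis and lost the call without lactic acidosis replicate 1 or 2 or acidosis replicate 2. EIF3A was 0.32 higher in lactic acidosis, having been listed lower than control in both, and kept the call in 1 of the 6 fits that leave out a library, the one without acidosis replicate 1. Rescaled, EIF4E stood at 0.22 and EIF3A at 0.23.

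Between lactosis and acidosis, EIF1AD was 0.46 higher in lactosis and EIF4A2 stood at -0.47, and both kept their call under all 12 alternatives. EIF2B1 was 0.32 higher in lactosis, and lost the call without lactosis replicate 1 or 3 or acidosis replicate 2 or 3. EIF5B was 0.27 higher in lactosis, losing it without lactosis replicate 1 or 2 or acidosis replicate 2 or 3 and after rescaling. EIF4B stood at -0.41 and lost it without lactosis replicate 1 or 2 or acidosis replicate 2.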

How the results depend on the processing

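Of 118 values of named genes, 1416 recomputed values kept direction and side of the threshold in 1228 cases, lost the call in 131, gained it in 47 and turned direction in 10. Those 10 were small: EIF3A in lactic acidosis over control (-0.1437 to 0.0086 with a library left out, above 0 without control replicate 2), and, in lactic acidosis over lactosis, EEF2 (-0.0221 rescaled, -0.0128 to 0.1119 with a library left out), EEF2KMT (-0.1275 to 0.0236), EIF1AX (-0.079 to 0.0206), EIF4A2 (-0.0543 rescaled, -0.0221 to 0.0854 with a library left out) and WARS2 (-0.0084 rescaled). In lactic acidosis over control 17 of 22 named calls, in lactosis 11 of 20 and in acidosis 0 of 7 held under every alternative.

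At an adjusted p under 0.01, 15 genes were higher in lactic acidosis, 7 higher and 4 lower in lactosis, 0 and 0 in acidosis, and 1 and 1 in lactosis over acidosis. Over all tested genes that threshold gave 1357 higher in lactic acidosis, 586 and 537 in lactosis, 140 and 198 in acidosis, and 89 and 43 in lactosis over acidosis. At the main threshold these were 2368, 1435 and 963, 617 and 416, and 192 and 88. Rescaling gave 12 lower in lactosis, 12 higher and 5 lower in acidosis, and, between treated groups, 1 lower in lactic acidosis than in lactosis, 4 lower in lactic acidosis than in acidosis and 4 lower in lactosis than in acidosis. A pseudocount of 0.1 gave 0 lower in acidosis, and of 5 gave 3 lower in acidosis and 3 higher in lactic acidosis than in lactosis. Over all tested genes these settings gave 393 lower, 349 lower and 432 higher. Same-number correlations of deviations between treated and control libraries were 0.195, 0.144 and -0.112 in lactic acidosis. They were -0.005, -0.319 and 0.166 in lactosis, and -0.071, -0.057 and 0.093 in acidosis. Those between different numbers ran from -0.271 to 0.259. With 3 libraries per group these values cannot settle whether replicates were paired. With the replicate block 4 genes were lower in lactosis, and 0 higher and 0 lower in acidosis. Over all listed genes the block gave 837 lower in lactosis, and 378 higher and 278 lower in acidosis. With a library left out, higher and lower genes numbered 15 to 25 and 6 to 9 in lactic acidosis, 8 to 19 and 4 to 12 in lactosis, 0 to 10 and 0 to 5 in acidosis, 1 to 2 and 0 to 0 in lactic acidosis over lactosis, 5 to 8 and 1 to 1 in lactic acidosis over acidosis, and 1 to 5 and 1 to 2 in lactosis over acidosis. Counts over all listed genes moved too. Against control they ran from 1566 to 2458 higher and 973 to 1693 lower in lactic acidosis, and 756 to 1629 and 631 to 1228 in lactosis. In acidosis they ran from 194 to 879 and 197 to 655. At 1.5-fold or more, 9 higher and 5 lower genes were listed in lactic acidosis, 7 and 4 in lactosis, and 0 and 0 in acidosis. From 150 bases before the start, 0 promoters held TGATGNAA. The causes of these changes were not tested, apart from the smaller number of libraries or the stricter threshold that an alternative itself sets. Depth is unknown, and genes not listed have no value, so no gene here is shown to be unchanged.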
